A study of Mus musculus with 2 samples.

Results

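The genes described here are 9 enzymes and related proteins of the brush border, the dense layer of microvilli on the luminal face of the kidney proximal tubule (PT). They were taken by symbol from the 31053 genes of the feature lists, which were identical in both libraries, and all 9 were found: Mep1a, Mep1b, Ggt1, Napsa, Anpep, Dpep1, Mme, Tmem27 and Dpp4. They were chosen by their measured levels across PT segments, cell types and libraries, so these levels are a description and carry no test. The kidney cortex of mice at 16 weeks of age was dissociated and its cells were sequenced one by one, as 1 library labelled PT-I_Ppo-1, called PT I-PpoI here, and 1 library labelled Wild-Type. I-PpoI is a homing endonuclease that cuts DNA, and per the series title its expression was specific to proximal tubular epithelium. The promoter or Cre line that drives it, the strain and the number of animals per library are not given in the sources used here, and the level of the endonuclease itself was not analysed here.

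Filtered blood plasma reaches the PT lumen carrying peptides, glutathione and small proteins. Brush border peptidases cut these into amino acids, which carriers then take up, so the enzymes and the carriers work as a pair in peptide and amino acid salvage. The PT runs through 3 segments, S1 in the convoluted part next to the glomerulus, S2 and then S3 in the straight part, and these differ in which enzymes and carriers they make.

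The 2 libraries differed in depth and in cell makeup. The PT I-PpoI library kept 5096 cells with a median of 11048 unique molecular identifiers (UMIs, each standing for 1 captured RNA molecule), and the wild-type library kept 11977 cells with a median of 2683 UMIs. Levels are CPM, a gene's UMIs per 1000000 UMIs of a cell set summed over its cells, and ranges in parentheses after a level or ratio are exact intervals at 95% that cover counting error only. With 1 library per group no test between libraries was possible and differences between animals cannot be told apart from differences between groups. Cells were named from marker genes as PT-like, S1-like and so on. PT-like cells numbered 181 of the PT I-PpoI cells (3.55%) and 6014 of the wild-type cells (50.2%). All 16 PT markers were read in PT-like cells of both libraries, at a summed 26130 CPM in PT I-PpoI and 52110 CPM in wild type. S1-like cells numbered 164 in PT I-PpoI, against 2167 in wild type, S2-like cells 10 and 2060, and S3-like cells 1 and 236. A further 6 PT I-PpoI and 1551 wild-type PT-like cells, in the shallow cluster 9 with median UMI counts of 847 in PT I-PpoI, against 693 in wild type, could not be placed in a segment. Free RNA, released by broken cells and captured with intact ones, was estimated at 3.23% of S1-like UMIs in PT I-PpoI, against 13.02% in wild type, and at 3.54% and 6.25% when the free RNA profile came from barcodes holding at most 100 UMIs, called the sparse profile here. For cluster 9 the estimates were 5.02% of UMIs in PT I-PpoI, against 89.7% in wild type, and 5.50% and 43.05% with the sparse profile. Fewer cells and less RNA per cell cannot be told apart in sums of a whole library, so values are given within cell classes.

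In mm10 with the GENCODE M21 annotation all 9 are protein-coding genes. Ggt1 lies at chr10:75561604-75586200 (+), Napsa at chr7:44572380-44586862 (+), Mep1a at chr17:43474324-43502812 (-), Dpep1 at chr8:123186242-123201812 (+), and Tmem27, named Cltrn there, at chrX:164088830-164118860 (+). Reads of this kit come from the 3' ends of transcripts, so each value stands for a gene and not for an isoform. Promoter letters were looked at because several members share the PT. The RefSeq promoter table used here (GRCm38.p6) matched 7 members with 13 starts, Tmem27 under its RefSeq symbol Cltrn, and Mep1b and Napsa were not matched. HNF1 and HNF4 are transcription factors of the PT. The HNF1 core motif GTTAAT, searched on both strands, was present before 1 of the 13 starts, that of Tmem27, and in 6.43% of all 32851 promoters. Its longer form, the core motif followed by any base and then ATT, was found at that same start and in 0.371% of all promoters. The HNF4 motif CAAAGTCCA was found before none of the 13 starts and in 0.384% of all promoters. A match describes letters and is not a binding site. The stretch before the first Tmem27 start (chrX:164089937-164090186, + strand) is shown with its matches in capitals, 73 and 54 bases before the start, beside those of Mep1a (chr17:43502774-43503023, - strand) and Dpep1 (chr8:123185985-123186234, + strand), whose levels run in opposite directions along the segments and which hold none of these motifs.
Tmem27: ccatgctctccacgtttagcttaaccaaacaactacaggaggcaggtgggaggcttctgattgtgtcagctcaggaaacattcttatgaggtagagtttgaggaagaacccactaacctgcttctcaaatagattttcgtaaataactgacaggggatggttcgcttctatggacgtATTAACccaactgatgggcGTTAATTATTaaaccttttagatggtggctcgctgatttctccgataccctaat
Mep1a: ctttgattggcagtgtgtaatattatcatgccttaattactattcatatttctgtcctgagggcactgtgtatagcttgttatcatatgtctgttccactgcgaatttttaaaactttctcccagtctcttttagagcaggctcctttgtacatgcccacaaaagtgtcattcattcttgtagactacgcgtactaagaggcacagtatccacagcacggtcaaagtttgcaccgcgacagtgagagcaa
Dpep1: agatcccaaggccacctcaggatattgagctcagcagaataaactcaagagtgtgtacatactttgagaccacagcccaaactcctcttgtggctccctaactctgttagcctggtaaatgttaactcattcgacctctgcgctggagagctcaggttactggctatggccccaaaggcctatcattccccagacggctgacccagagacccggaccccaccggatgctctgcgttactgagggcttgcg

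In wild type the members split along the tubule. Mep1a, Mep1b, Napsa and Mme were lowest in S1-like cells, higher in S2-like cells and highest in S3-like cells, Ggt1 reached most of its height by S2, Dpep1 fell along the segments, and Tmem27, Anpep and Dpp4 varied least. Napsa, which codes for the aspartic protease napsin A of lysosomes, reached the highest level of the 9, at 74.8 CPM in S1-like, 1174 CPM in S2-like and 10920 CPM in S3-like cells. Its S3 level was 145.9 times its S1 level, and the log2 ratio of S3 over S1 was 7.19 (7.10 to 7.28). Mep1a and Mep1b code for the alpha and beta subunits of meprin, a metalloprotease of the brush border. Mep1a was at 89.4 CPM in S1-like, 728 CPM in S2-like and 2094 CPM in S3-like cells. Mep1b was at 1.59 CPM in S1-like, 44.7 CPM in S2-like and 653 CPM in S3-like cells. Free RNA was expected to give 19.7 of the 21 Mep1b UMIs of wild-type S1-like cells, or 11.8 with the sparse profile.

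Mme, which codes for neprilysin, an endopeptidase that cuts small peptide hormones, followed the same order at 10.0 CPM in S1-like, 33.3 CPM in S2-like and 175 CPM in S3-like cells. Ggt1 codes for gamma-glutamyl transferase, which starts the breakdown of glutathione outside the cell. It was at 242.5 CPM in S1-like, 983 CPM in S2-like and 1172 CPM in S3-like cells, so the step between S2 and S3 was small, with a log2 ratio of S3 over S2 of 0.25 (0.19 to 0.32). Dpep1, the dipeptidase that splits the cysteinyl-glycine left by gamma-glutamyl transferase, ran the other way. It was at 143 CPM in S1-like, 41.7 CPM in S2-like and 2.81 CPM in S3-like cells, where it rested on 5 UMIs. The log2 ratio of S3 over S1 for Dpep1 was -5.53 (-7.29 to -4.44). The enzymes of these successive steps of glutathione breakdown thus had opposite segment orders at the RNA level.

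The other members kept within a narrower span. Tmem27, also called collectrin, is a membrane protein and a partner of amino acid carriers. It was at 1397 CPM in S1-like, 1310 CPM in S2-like and 747 CPM in S3-like cells, a log2 ratio of S3 over S1 of -0.90 (-0.99 to -0.82). Anpep, aminopeptidase N, was at 22.6 CPM in S1-like cells, 35.8 CPM in S2-like cells and 36.6 CPM in S3-like cells, and its S2 and S3 levels did not differ beyond counting error (log2 ratio 0.04, -0.36 to 0.40). Dpp4, dipeptidyl peptidase 4, was at 36.2 CPM in S1-like, 29.0 CPM in S2-like and 50.6 CPM in S3-like cells. By point value 7 of the 9 members were highest in S3-like cells, against 29.2% of the 12841 genes with at least 10 UMIs over the 3 segments, and Tmem27 and Dpep1 were highest in S1-like cells. Anpep moved to S2 under 4 of the 7 other ways of grouping or correcting cells that were compared, and the other 8 members kept their highest segment. A level in S3-like cells over that in S1-like cells of 2-fold or more was found for 5 of the 9 members (Mep1a, Mep1b, Ggt1, Napsa and Mme), against 10.8% of the 11902 genes tested, those with at least 10 UMIs in the 2 segments together. A level lower by 2-fold or more was found for Dpep1, against 24.0% of all genes. Between S2-like and S1-like cells the same 5 members were higher by 2-fold or more, against 7.53% of genes, and Dpep1 was lower, against 11.7%. Between S3-like and S2-like cells 4 members were higher by that much (Mep1a, Mep1b, Napsa and Mme), against 8.0%, and Dpep1 was lower, against 14.4%.

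**Figure D1:**
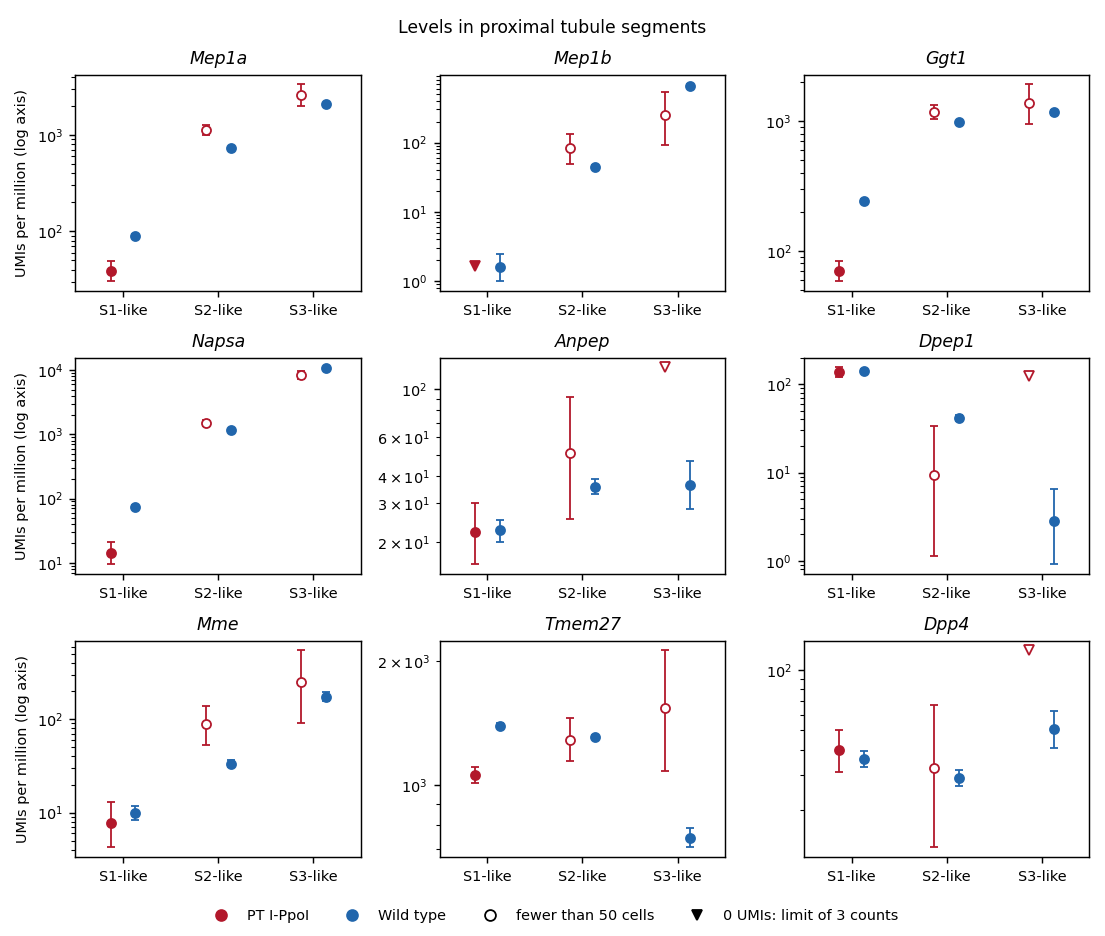
Levels of the 9 members in S1-, S2- and S3-like cells of the PT I-PpoI and wild-type libraries, in CPM on a log axis; points are sums over cells, bars are exact intervals for counting error, open points rest on fewer than 50 cells (10 and 1 in PT I-PpoI) and triangles mark the level of 3 counts where no UMI was read. Napsa climbs to 10920 CPM in wild-type S3-like cells while Dpep1 drops to 2.81 CPM.

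The few S2-like cells of PT I-PpoI held Mep1a at a level above that of wild type. The 10 S2-like cells of PT I-PpoI held Mep1a at 1130 CPM (992 to 1281), against 728 CPM in the 2060 wild-type cells. Ggt1 was at 1190 CPM (1049 to 1345) in PT I-PpoI and 983 CPM in wild type. Napsa was at 1511 CPM (1351 to 1684) in PT I-PpoI and 1174 CPM in wild type. These S2-like cells came from clusters 29 and 31 in different proportions, with 7 cells of cluster 29 and 3 of cluster 31 in PT I-PpoI, against 820 and 1240 in wild type. Within these clusters Napsa differed in sign, at 1652 CPM in PT I-PpoI and 1010 CPM in wild type in cluster 29 (log2 ratio 0.71, 0.51 to 0.90) and at 1276 CPM in PT I-PpoI and 1566 CPM in wild type in cluster 31 (log2 ratio -0.29, -0.59 to -0.01). The log2 ratio of Ggt1 was 0.37 (0.15 to 0.58) in cluster 29 and 0.13 (-0.22 to 0.44) in cluster 31, and that of Mep1a was 0.67 and 0.62. Mme stood at 88.3 CPM (53.2 to 137.9) in PT I-PpoI, on 19 UMIs in 5 of its cells, and at 33.3 CPM in wild type. Dpep1 gave 2 UMIs, or 9.30 CPM (1.13 to 33.6), in PT I-PpoI and 41.7 CPM in wild type. The single S3-like cell of PT I-PpoI held 203 Napsa UMIs (8462 CPM), 63 of Mep1a (2626 CPM) and 6 of Mep1b (250.1 CPM), and none of Dpep1. The wild-type S3-like levels are given above. This cell also held 10 of the 11 endothelial markers, at a summed 1792 CPM, against 92.8 CPM in wild-type S3-like cells. Its values may thus not be those of a PT cell alone. Groups of 10 cells and 1 cell allow no statement beyond these values.

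Over all PT-like cells, 4 of the 9 members were lower by 2-fold or more in PT I-PpoI, against 4.8% of the 13121 genes tested (at least 10 UMIs in all), and none was higher by that much, against 17.3%. The 4 were Mep1a, Mep1b, Ggt1 and Napsa, all higher in wild-type S3-like than S1-like cells. Napsa was at 270.3 CPM in PT I-PpoI and 1224 CPM in wild type, a log2 ratio of -2.18 (-2.30 to -2.06). Mep1b was at 11.7 CPM in PT I-PpoI and 58.7 CPM in wild type (log2 ratio -2.30, -2.98 to -1.75). Ggt1 was at 202.7 CPM in PT I-PpoI and 673.5 CPM in wild type (log2 ratio -1.73, -1.88 to -1.59), and Mep1a at 183.8 CPM in PT I-PpoI and 525.6 CPM in wild type (log2 ratio -1.51, -1.67 to -1.37). Dpep1, the gene of the first segment, was at 121.1 CPM in PT I-PpoI and 80.5 CPM in wild type, and its ratio was above 0 (log2 ratio 0.59, 0.40 to 0.78). The median log2 ratio was -0.68 over the members and 0.34 over all genes. The segment makeup differed, with S1-like cells making up 164 of the 181 PT-like PT I-PpoI cells, against 2167 of the 6014 wild-type ones, and its part in the pooled ratios was not tested.

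Within S1-like cells Ggt1 was lower in PT I-PpoI by more than 2-fold, and of the members lower by that much it had the most UMIs. It had 126 UMIs in PT I-PpoI, or 69.8 CPM (58.1 to 83.1), and 3197 UMIs in wild type, or 242.5 CPM (234.2 to 251.0). The log2 ratio was -1.79 (-2.07 to -1.54), and with free RNA subtracted it was -1.86. The S1-like set rests on clustering both libraries together: clustered separately, PT I-PpoI gave 0 S1-like cells, against 3461 in wild type, and no S1-like ratio could be had. Segment scores compare the PT clusters of a single clustering with each other, so this 0 cannot tell which segment its 184 PT-like PT I-PpoI cells resemble. Ggt1 was lower in PT I-PpoI in each of the 3 S1-like clusters: at 38.5 CPM in PT I-PpoI and 174.2 CPM in wild type in cluster 8, at 74.7 and 160.0 CPM in cluster 14, and at 83.9 and 351.6 CPM in cluster 15. In this segment 4 of the 9 members were lower by 2-fold or more, against 2.78% of the 11910 genes tested, and none was higher by that much, against 9.87%. One of the 4 was Mep1b, at 0 UMIs in PT I-PpoI, against 21 in wild type, where 0 UMIs allow a level of up to 1.66 CPM (3 counts), above the wild-type 1.59 CPM, so no fold can be given and 3 of the 9 members remain.

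Napsa and Mep1a were also lower in S1-like cells, but part of the wild-type signal was estimated to be free RNA. Napsa had 26 UMIs (14.4 CPM) in PT I-PpoI and 986 UMIs (74.8 CPM) in wild type, a log2 ratio of -2.35 (-3.00 to -1.82). Free RNA was expected to give 1.52 of the PT I-PpoI and 608.5 of the wild-type UMIs, and with it subtracted the log2 ratio of Napsa was -1.21. With the sparse profile, an alternative added after seeing the data, the expected Napsa UMIs were 2.06 in PT I-PpoI, against 432.8 in wild type, and the ratio was -1.68 (Ggt1 -1.83, Mep1a -1.09). Mep1a had 70 UMIs (38.8 CPM) in PT I-PpoI and 1179 UMIs (89.4 CPM) in wild type, a log2 ratio of -1.20 (-1.58 to -0.86). The expected free RNA UMIs of Mep1a were 1.18 in PT I-PpoI, against 239.9 in wild type, and the ratio after subtraction was -1.05. In cluster 8 alone Mep1a was at 38.5 CPM in PT I-PpoI and 68.9 CPM in wild type, a log2 ratio of -0.79 (-1.73 to -0.07), which is under a 2-fold difference.

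The S1-like cells of the libraries also differed in markers of the later segments, and the part of this in the lower Ggt1, Napsa and Mep1a was not tested. Over the marker lists, the median log2 ratio was 0.19 for 10 S1 markers, -0.82 for 9 S2 markers and -1.60 for 12 S3 markers with enough UMIs. The 14 S3 markers summed to 202.6 CPM in PT I-PpoI, with 5 of them at 0, and to 412.2 CPM in wild type, with none at 0. Marker sums of some other cell types were higher in the PT I-PpoI S1-like cells as well, and those of others were lower. The 8 cycling markers summed to 223.7 CPM in PT I-PpoI, against 25.9 CPM in wild type, with none at 0 in either. The 9 thick ascending limb markers summed to 554.7 CPM in PT I-PpoI, against 363.6 CPM in wild type, the 8 distal convoluted tubule markers to 240.8 CPM, against 116.3 CPM, and the 10 intercalated cell markers to 723.5 CPM, against 497.9 CPM, with none at 0. The 9 parietal markers summed to 138.4 CPM in PT I-PpoI, against 74.7 CPM in wild type. Among the lower ones, the 10 thin limb markers summed to 79.7 CPM in PT I-PpoI, against 108.7 CPM in wild type. The 11 endothelial markers summed to 27.7 CPM, against 34.8 CPM, and the 10 macrophage markers to 12.7 CPM, against 15.7 CPM. Within the wild-type PT the intercalated cell markers themselves fell from 497.9 CPM in S1-like to 23.6 CPM in S3-like cells. The part of these markers in the lower members was not tested.

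Of the other members, Dpep1, Anpep and Dpp4 stayed close to their wild-type level in S1-like cells taken as a whole. Tmem27 was lower by less than 2-fold, and Mme had too few UMIs to tell. Dpep1 was at 136.7 CPM (120.2 to 154.9) in PT I-PpoI, against 143.0 CPM (136.7 to 149.7) in wild type, and these intervals overlap. Anpep was at 22.1 CPM in PT I-PpoI and 22.6 CPM in wild type, with a log2 ratio of -0.01 (-0.54 to 0.45). Dpp4 was at 39.9 CPM in PT I-PpoI and 36.2 CPM in wild type (log2 ratio 0.15, -0.24 to 0.50). Mme rested on 14 UMIs in PT I-PpoI, against 132 in wild type, and its interval (-1.28 to 0.43) allows a difference of either sign. Tmem27 was at 1058 CPM (1012 to 1107) in PT I-PpoI, against 1397 CPM (1377 to 1418) in wild type, a log2 ratio of -0.40 (-0.47 to -0.33) whose interval lies below 0.

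The Tmem27 and Dpep1 values hid a split between clusters. In cluster 15 Tmem27 was at 537.5 CPM in PT I-PpoI and 1463 CPM in wild type (log2 ratio -1.44, -1.63 to -1.26), and Dpep1 at 49.5 CPM in PT I-PpoI and 151.0 CPM in wild type (log2 ratio -1.58, -2.28 to -1.01). In cluster 14 Tmem27 was at 1290 CPM in PT I-PpoI and 1396 CPM in wild type (log2 ratio -0.11), and Dpep1 at 168.8 CPM in PT I-PpoI and 148.3 CPM in wild type (log2 ratio 0.19, -0.07 to 0.44). In cluster 8 the log2 ratio was -0.24 for Tmem27 and 0.37 for Dpep1. Cluster 15 held 63 PT I-PpoI and 605 wild-type cells and had the highest mitochondrial share of the 3, a median of 38.58% in PT I-PpoI, against 40.15% in wild type. Its 16 PT markers summed to 10770 CPM in PT I-PpoI and 21630 CPM in wild type, while in cluster 14 they summed to 23020 CPM in PT I-PpoI and 26630 CPM in wild type. In cluster 15 the 9 thick ascending limb markers summed to 516.0 CPM in PT I-PpoI, against 242.7 CPM in wild type, and the 9 parietal markers to 165.6 CPM, against 73.5 CPM. Cdkn1a, which codes for the cell cycle inhibitor p21, was at 27.9 CPM in PT I-PpoI, against 2.96 CPM in wild type in that cluster. In cluster 14 it was at 15.35 CPM, against 14.91 CPM, and in cluster 8 at 10.99 CPM, against 5.85 CPM. Of other genes read beside it in cluster 15, Vcam1 was at 8.60 CPM in PT I-PpoI, against 0.37 CPM in wild type. In this cluster 3 counts stand for 6.45 CPM in PT I-PpoI, against 0.56 CPM in wild type. The Vcam1 and Cdkn1a values there thus rest on few UMIs, and no intervals were computed for them. Gdf15 was at 12.9 CPM, against 10.37 CPM, and Havcr1, Lcn2 and Krt20 were at 0 in PT I-PpoI. The part of these in the lower Tmem27 and Dpep1 of cluster 15 was not tested.

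**Figure D2:**
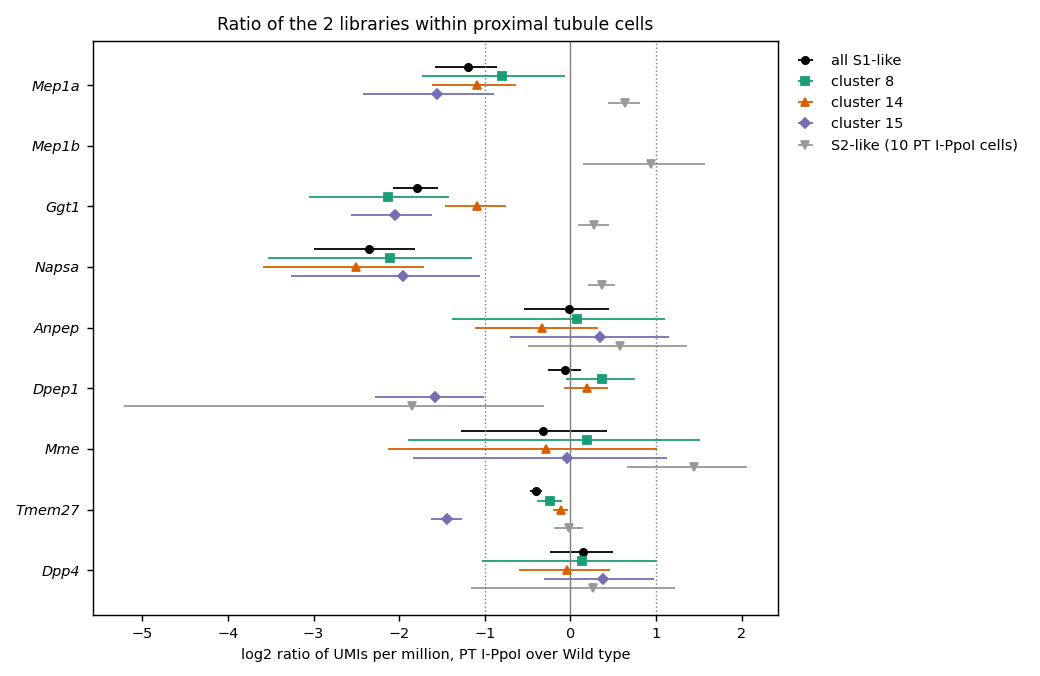
Log2 ratio of PT I-PpoI over wild type for each member in all S1-like cells, in S1-like clusters 8, 14 and 15 and in S2-like cells; bars are exact intervals for counting error, dotted lines mark 2-fold, and ratios with no UMI in a library (Mep1b in S1) are not drawn. Ggt1 and Napsa lie below -1 in all 3 clusters, and Tmem27 and Dpep1 do so in cluster 15.

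The lower Ggt1 was also seen at equal depth. Cells were thinned to 2000 UMIs, which left 157 S1-like cells in PT I-PpoI, against 1679 in wild type. Ggt1 was read in 14.6% (9.52 to 21.2) of thinned cells in PT I-PpoI, against 31.6% (29.4 to 33.9) in wild type. Without thinning, at median depths of 10016 UMIs in PT I-PpoI, against 4433 in wild type, the Ggt1 shares were 38.4% in PT I-PpoI, against 49.9% in wild type. As a background, T or NK-like cells, with median depths of 4253.5 UMIs in PT I-PpoI, against 2485 in wild type, held a Ggt1 UMI in 2.27% of thinned PT I-PpoI cells and 8.89% of thinned wild-type cells. This background is rough, since free RNA was estimated at 19.72% of UMIs in wild-type T or NK-like cells, against 13.02% in S1-like cells. Napsa was read in 3.82% (1.42 to 8.13) of PT I-PpoI cells, against 12.9% (11.3 to 14.6) of wild-type cells, beside 8.33% (5.69 to 11.7) of wild-type T or NK-like cells, so its wild-type share lay close to background. Mep1a was read in 8.92% (4.96 to 14.5) of PT I-PpoI cells, against 13.9% (12.3 to 15.6) of wild-type cells, intervals that overlap. Tmem27 was read in 70.7% (62.9 to 77.7) of PT I-PpoI cells, against 86.5% (84.8 to 88.1) of wild-type cells. For Dpep1 the shares were 22.9% in PT I-PpoI, against 22.5% in wild type.

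**Figure D3:**
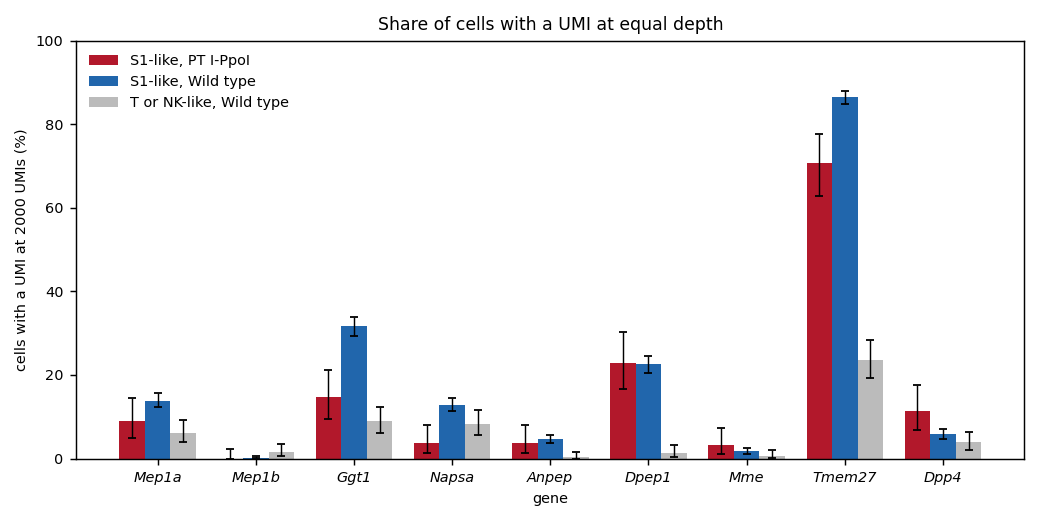
Share of cells with a UMI of each member after thinning every cell to 2000 UMIs, in S1-like cells of PT I-PpoI and of wild type, with wild-type T or NK-like cells as a rough background. For Dpp4 these cells are no such background, since they held it above 2 times the free RNA level. Bars start at 0 and error bars are exact binomial intervals. Ggt1 is at 14.6% in PT I-PpoI, against 31.6% in wild type, while Dpep1 is at 22.9% and 22.5%.

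In related lists at most 2 genes each were lower by 2-fold or more in S1-like cells, and none was higher. Beside these counts stand 2.78% of all genes lower and 9.87% higher. In each list with a lower gene the share of lower genes was above that of all genes. Among 17 other surface peptidases 8 had enough UMIs, and 1 was lower by 2-fold or more by its fitted ratio, against the 2.78% of all genes: Ace, the angiotensin-converting enzyme, with 0 UMIs in PT I-PpoI and 31 (2.35 CPM) in wild type, close to the limit of 1.66 CPM that 3 counts set in PT I-PpoI. Enpep, aminopeptidase A, was at 29.3 CPM in PT I-PpoI and 42.9 CPM in wild type. Of 23 genes for peptide breakdown inside the cell 1 was lower by that much, the dipeptidase gene Cndp2, at 51.5 CPM in PT I-PpoI and 126.0 CPM in wild type. Among 13 peptide and amino acid carriers with enough UMIs 1 was lower, Slc7a13, which is also among the S3 markers, at 3.88 CPM in PT I-PpoI and 22.6 CPM in wild type. The peptide carrier gene Slc15a2 was at 18.3 CPM in PT I-PpoI and 33.1 CPM in wild type. On a list of other enzymes 10 had enough UMIs and 2 were lower, Treh and Gda. Treh, trehalase, was at 6.09 CPM in PT I-PpoI and 15.02 CPM in wild type. Gda had 0 UMIs in PT I-PpoI, against 50 (3.79 CPM) in wild type. None of 15 genes of the microvillus scaffold and none of 9 PT transcription factors passed 2-fold in either direction, and their median log2 ratios were 0.15 and 0.22, beside 0.25 over all genes. Ace, Cndp2, Slc7a13 and Treh were all higher in wild-type S2-like than S1-like cells (Ace 44.7 against 2.35 CPM, Cndp2 1499 against 126.0 CPM, Slc7a13 806 against 22.6 CPM, and Treh 52.5 against 15.02 CPM).

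Outside the PT, some of the members were read above the free RNA level, in classes that differed between members. To separate a cell's own RNA from free RNA, each count was divided by the count that free RNA would give in that class. In 15 of 90 pairs of a member and a class with 50 or more cells in each library, this ratio lay above 2 beyond counting error in both libraries, on at least 10 UMIs each. Over all 14195 genes with at least 10 UMIs in these classes the same held for 58.1% of pairs, a larger share than among the members. The 15 pairs involved Mme in 4 classes, Dpp4 in 6, Anpep in 3, and Ggt1 and Napsa in 1 class each. Mep1a, Mep1b, Dpep1 and Tmem27 had no such pair.

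Neprilysin RNA was read in several other nephron classes at levels above those of S1-like cells. Mme was at 354.4 CPM in PT I-PpoI and 323.4 CPM in wild type in intercalated-like cells, the acid- and base-secreting cells of the collecting system, or 72.6 and 104.5 times the free RNA level. It was at 119.5 CPM in PT I-PpoI and 105.9 CPM in wild type in thick ascending limb-like cells and at 114.5 and 108.6 CPM in thin limb-like cells. In podocyte-like cells, which wrap the glomerular capillaries, it was at 474.8 CPM in 45 PT I-PpoI cells and 638.0 CPM in 18 wild-type cells. Parietal-like cells, which line the glomerular capsule, held it at 218.3 CPM in 47 PT I-PpoI cells and 227.3 CPM in 63 wild-type cells. The log2 ratio of Mme was 0.13 (0.04 to 0.23) in intercalated-like and 0.17 (0.03 to 0.32) in thick ascending limb-like cells, both intervals above 0, while the intervals included 0 in thin limb-like, podocyte-like and parietal-like cells. Mural-like cells, those of vessel walls, held 55 Mme UMIs (55.15 CPM) in PT I-PpoI, against 4 (5.89 CPM) in wild type. That log2 ratio was 3.07 (1.79 to 5.15). In connecting tubule or principal-like cells Mme was lower, at 5.85 CPM in PT I-PpoI, against 14.06 CPM in wild type.

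Dpp4 was highest in podocyte-like cells. There it stood at 1192 CPM (507 UMIs) in PT I-PpoI and 1677 CPM (92 UMIs) in wild type, 3085 and 1089 times the free RNA level and above the 39.9 CPM in PT I-PpoI and 36.2 CPM in wild type of S1-like cells. Both podocyte-like sets hold fewer than 50 cells. Dendritic-like cells held it at 77.7 CPM in PT I-PpoI and 73.7 CPM in wild type, and connecting tubule or principal-like cells at 36.9 and 24.5 CPM. In T or NK-like cells, where the protein is known as CD26, Dpp4 was at 14.4 CPM on 10 UMIs in PT I-PpoI and 21.7 CPM on 30 UMIs in wild type.

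Ggt1 was also read in the distal nephron. In thick ascending limb-like cells it was at 274.0 CPM in PT I-PpoI and 303.0 CPM in wild type, a log2 ratio of -0.15 (-0.23 to -0.06), and 16.7 and 10.1 times the free RNA level. In distal convoluted tubule-like cells it was at 190.1 CPM in PT I-PpoI and 138.4 CPM in wild type, where free RNA was a larger part, at 2.18 times the free RNA level in wild type. The difference of these ratios from that of S1-like cells was not tested. Anpep stood at 41.0 CPM in PT I-PpoI and 33.8 CPM in wild type in intercalated-like cells, and at 40.6 and 44.0 CPM in thin limb-like cells, above its 22.1 and 22.6 CPM in S1-like cells.

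Napsa was also read in antigen-presenting cells. Dendritic-like cells held it at 520.3 CPM in PT I-PpoI and 478.2 CPM in wild type, or 680.1 and 9.10 times the free RNA level, since free Napsa RNA was more abundant in wild type (26.1 CPM of the free RNA profile in PT I-PpoI and 354.5 CPM in wild type). B-like cells held 55.4 CPM in 47 PT I-PpoI cells and 386.2 CPM in 134 wild-type cells, the wild-type value being 3.89 times the free RNA level. Free RNA was estimated at 1.46% of their UMIs in PT I-PpoI, against 28.0% in wild type. Their makeup also differed. Cluster 0, led by Ms4a1, held 20 PT I-PpoI and 125 wild-type cells, and cluster 28, led by Jchain and Igha, held 27 and 9. The B-like values thus compare different mixes of cells. Dpep1 had a site outside the epithelium as well: fibroblast-like cells, led by the collagen genes Col1a1 and Col3a1, held 318 UMIs (1170 CPM) in 33 PT I-PpoI cells and 58 UMIs (725.7 CPM) in 18 wild-type cells. These levels are 4704 and 222.2 times the free RNA level and above those of S1-like cells (136.7 and 143.0 CPM), although both sets hold fewer than 50 cells. Mep1a and Tmem27 outside the PT lay at or near the free RNA level in most wild-type classes. In PT I-PpoI, Tmem27 was 3.76 times the free RNA level in thick ascending limb-like cells (30.0 CPM), where in wild type it was 1.21 times that level (107.6 CPM). Tmem27 in thin limb-like cells was at 85.0 CPM in PT I-PpoI, 29.2 times the free RNA level, and at 177.3 CPM in wild type, 1.46 times that level.

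**Figure D4:**
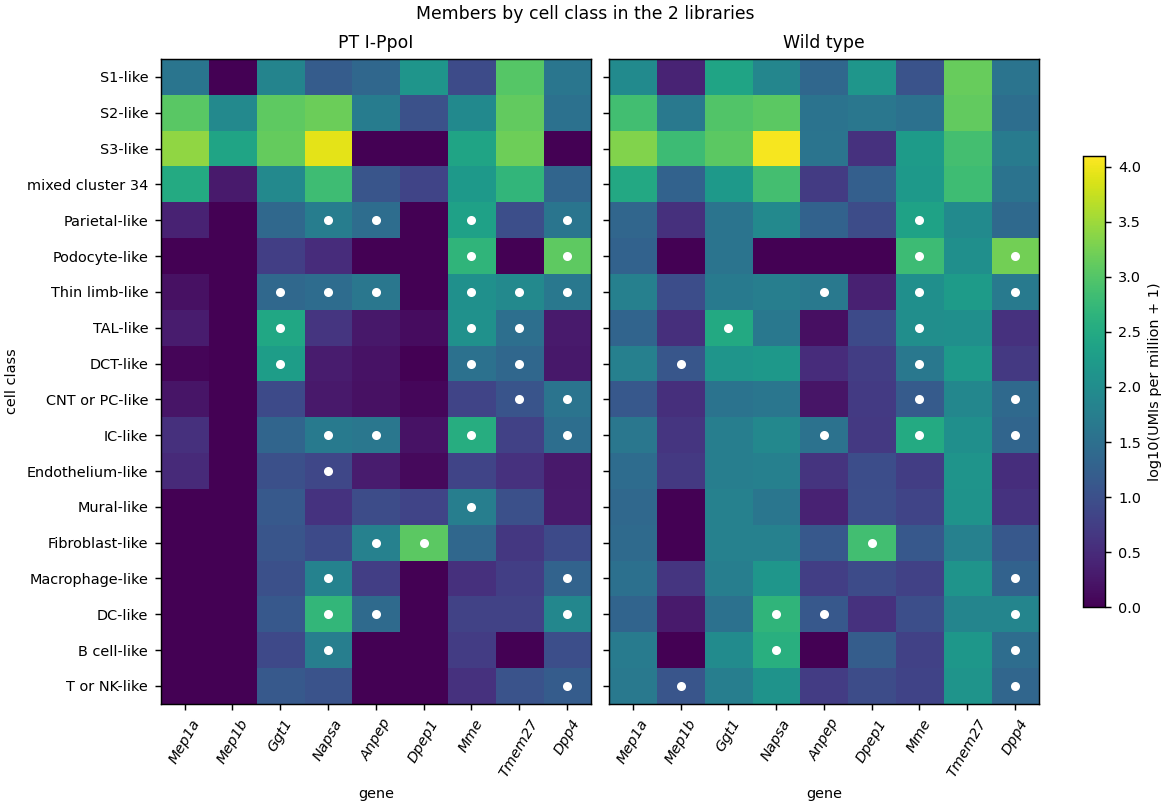
Levels of the 9 members (columns) by cell class (rows) for the PT I-PpoI (left) and wild-type (right) libraries, as log10 of CPM plus 1; white dots mark classes outside the PT with 10 or more UMIs where the level exceeds 2 times that of free RNA beyond counting error in that library. Mme in intercalated-like cells, Dpp4 in podocyte-like cells, Napsa in dendritic-like cells and Dpep1 in fibroblast-like cells carry a dot in both panels.

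A further cluster was closest to parietal cells by its markers but was given no name, since no parietal marker was among its leading genes. Of the 16 PT markers 2 passed the marker rule in it, under the 3 needed for a PT name. Cluster 34, with 40 PT I-PpoI and 37 wild-type cells, was led by Sfrp5 and Wfdc16. It held Napsa at 660.1 CPM in PT I-PpoI and 740.4 CPM in wild type, Tmem27 at 505.0 and 675.5 CPM, Mep1a at 318.1 and 294.9 CPM and Mme at 164.0 and 156.9 CPM. Ggt1 was at 83.5 CPM (66.6 to 103.4) in PT I-PpoI, against 167.3 CPM (132.7 to 208.2) in wild type in these cells, a log2 ratio of -1.003 (-1.46 to -0.54), and Dpep1 gave 6 UMIs in PT I-PpoI, against 8 in wild type. The intervals of the log2 ratio in cluster 34 included 0 for Napsa, Mep1a and Mme and lay below 0 for Ggt1, Tmem27 and Mep1b, the last on 1 UMI in PT I-PpoI, against 9 in wild type. The free RNA estimate, which rests on genes foreign to a class, came to 100% in PT I-PpoI, against 63.4% in wild type for this cluster and was not used.

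The genes whose levels followed the members most closely were found by Pearson correlation of log2(CPM + 1) over classes with 50 or more cells, 12 in PT I-PpoI, against 16 in wild type, keeping the lower of the 2 values. These points share library, depth and free RNA, and the correlations are descriptions. For the mean of the members the closest were Cideb (0.85 in PT I-PpoI, against 0.87 in wild type), Azgp1 (0.84 and 0.89), Galc (0.82 and 0.83), Gm40614 (0.82 and 0.82) and Sult1d1 (0.82 and 0.87). For single members the closest were Nat8 for Mep1a (0.93 and 0.94), Cdhr5 for Ggt1 (0.87 and 0.90), Prodh2 for Dpep1 (0.95 and 0.96), Myo15b for Tmem27 (0.92 and 0.91), Itgav for Mme (0.78 and 0.83), Ihh for Anpep (0.81 and 0.80), Gm2a for Dpp4 (0.74 and 0.77) and Trps1 for Napsa (0.70 and 0.71). For Mep1b no gene could be named, since it was at 0 in the PT I-PpoI classes used.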

How the data were processed

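Single-cell RNA of kidney cortex was captured with a 10x Chromium 3' kit (version 3.1, per the labels' protocols), in 1 library per group. The authors deposited unfiltered matrices of UMI counts, without normalization. The submitters' processing notes name Cell Ranger 3.1, Seurat 3 and mm10, while the matrix header names Cell Ranger 4; which made the files was not settled. The libraries held 93257620 UMIs (PT I-PpoI) and 107977310 UMIs (wild type).

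Barcodes were called as cells by the knee of the ranked totals and, below it, by comparison with the profile of empty droplets (500 or more UMIs, FDR 0.01), giving 6942 barcodes in PT I-PpoI, against 17856 in wild type. Cells needed 200 genes and at most 50% mitochondrial UMIs. Doublets with a Scrublet score over 0.25 were removed, 102 in PT I-PpoI, against 287 in wild type, since the automatic threshold marked only 23 (0.44%) in PT I-PpoI. Among called barcodes 35 were shared by both libraries. Cells of both libraries were clustered together (scanpy 1.11.5, Leiden, 2000 variable genes without the members and lists), named from marker genes, and PT clusters were assigned to segments by marker score. The doublet score, the segment score minimum of 0.3 and the division of the fibroblast cluster were chosen after seeing the data.

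Levels were CPM of summed UMIs, with exact Poisson intervals, ratios with exact conditional binomial intervals (prior count 0.5 for the point value) and shares with Clopper-Pearson intervals. Differences of 2-fold or more were counted over genes with 10 or more UMIs; no p-value was computed because each group is 1 library. On simulated counts for the S1-like comparison (11787 genes, 200 changed), 97.0% of changed genes and 5.77% of unchanged genes passed 2-fold. The simulation held counting error only, and its changed genes were well read in wild type and all set past 2-fold. It therefore cannot tell how differences between cells, animals or free RNA affect the 2-fold counts. Free RNA was estimated from genes foreign to each class. Members and lists were chosen with earlier results of these data known. All 9 members are named; from each list up to 4 genes with the largest absolute log2 ratio in S1-like cells could be named if one library had at least 30 UMIs, and like genes needed 200 UMIs. Alternatives changed free RNA, cell calling, mitochondrial limit, doublets, genes used to cluster, separate clustering, weighting, scaling (edgeR 4.0.16 TMM) and filter.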

Additional observations from a re-analysis of the deposited data

How the results depend on the processing

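No paired analysis was possible because each group is 1 library and its replicate number is only a name. The count of members lower by 2-fold or more in PT I-PpoI was 4 in PT-like cells and between 4 and 5 under its alternatives. In S1-like cells it was 4 and between 3 and 5, except 2 in cluster 8 alone, where Mep1a was under 2-fold and Mep1b, with 8 UMIs, was not counted; the clusters were split after seeing the data. Members highest in S3-like cells numbered 7, or 6 where Anpep moved to S2. The 15 pairs above free RNA stayed 15 with another free RNA profile. Of 228 alternative values of single genes, 171 moved by less than counting error and 57 moved more. No value reported past 2-fold changed sign. The 171 include values that could not move: those without the minimum of 10 UMIs, which all 9 members already passed in PT-like and S1-like cells. In S1-like cells the log2 ratio ranged over -2.13 to -1.09 for Ggt1, -2.65 to -1.21 for Napsa and -1.56 to -0.79 for Mep1a. Mme in PT-like cells ranged over -1.19 to 1.03, the highest with cluster 34 added to the PT, which turns its direction. TMM scaling shifted all log2 ratios by -0.32 in PT-like and -0.23 in S1-like cells. Clustered separately, PT I-PpoI gave no S1-like cells, by segment scores that are relative to the PT clusters of that clustering. With 1 library per group, 164 PT I-PpoI S1-like cells and unequal depth per cell, differences between animals or preparations cannot be told apart from the groups.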
